A study of Mus musculus with 2 samples.

Results

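The genes that license DNA for replication, 10 in all, were examined in cultured mouse cardiomyocytes after knockdown of *Ppp2r5d*, which encodes B56 delta, a regulatory subunit of protein phosphatase 2A. They were the 6 subunits of the MCM2-7 helicase (*Mcm2*, *Mcm3*, *Mcm4*, *Mcm5*, *Mcm6* and *Mcm7*), the loading factors *Cdc6* and *Cdt1*, the licensing inhibitor *Gmnn* (geminin), and *Mcm10*, which acts when the loaded helicase is switched on. Members were found by gene name among the probes of the array. The 10 genes had 19 of the 56605 probes and were 10 of 37074 gene names, and all 10 were among the 20350 genes with a probe well above background on both arrays. The group was chosen by its measured values in this same contrast, so every fold change of the 10 genes below is a description and none of them was tested. In the sample labels the letters MCMs stand for mouse cardiomyocytes, and here MCM refers only to the helicase.

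The MCM2-7 proteins form a ring that unwinds DNA at the replication fork. In late mitosis and G1 the origin recognition complex, Cdc6 and Cdt1 place the ring on DNA in an inactive form, which is the step called licensing. In S and G2 phase, geminin binds Cdt1 and the turnover of Cdt1 protein keeps the same origin from being licensed again. Genes of this set are transcribed mainly in cycling cells, many of them as targets of E2F transcription factors, and adult cardiomyocytes rarely divide.

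The experiment had 2 one-colour arrays, 1 per condition. One culture was transfected with a negative control siRNA (siRNA-NC) and the other with 1 siRNA sequence against *Ppp2r5d* (siRNA-*Ppp2r5d*). Both were purchased mouse cardiomyocytes used after repeated passage and grown in DMEM with 2% fetal bovine serum, both were placed in glucose-free medium 48 h after transfection, and RNA was taken at 64 h. There was no untransfected culture and no second siRNA, so other effects of the siRNA sequence and the loss of *Ppp2r5d* cannot be told apart. With 1 array per condition no difference had a replicate check, and no p-value is given.

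The *Ppp2r5d* probe read 4701 intensity units with siRNA-NC and 676 with siRNA-*Ppp2r5d*, a log2 fold change of -2.61, which matched the labels. Both arrays had similar detection, with 59.9% and 59.3% of spots well above background, and no spot was saturated. Among 12 cardiomyocyte markers, both arrays read 6 well above background, and 1 array alone read 2 more. The other 4, *Actn2*, *Myl2*, *Myl7* and *Pln*, were not well above background on either, and *Myl2* and *Pln* are defining ventricular genes. Of 9 fibroblast markers 8 were well above background on both arrays, as were all 4 smooth muscle markers. The median log2 fold change was 0.22 over the 6 cardiomyocyte markers, from -0.19 (*Tnni3*) to 0.89 (*Ttn*), and 0.036 over the 8 fibroblast markers, from -0.31 (*Col1a2*) to 1.08 (*Lum*). The fibroblast median changed sign with the scaling of the arrays (-0.14 with spike-in scaling). The smooth muscle markers ran from -0.38 (*Myh11*) to 2.41 (*Cnn1*), 3 of 4 macrophage markers from -0.77 (*Cd68*) to 0.13 (*Ptprc*), and *Pecam1*, the 1 of 4 endothelial markers measured, was -0.23. *Ptprc* was well above background on 1 of its 7 probes, *Myh11* on 1 of 4, *Tnnt2* on 1 of 3, and *Myh7* and *Nppa* on 1 of 2. Detection of these genes rests on a single probe that the others do not share. The *Nppa* probe was dim, at 16.6 with siRNA-NC and 22.4 with siRNA-*Ppp2r5d*. With siRNA-NC the brightest probes of *Myh7* and *Tnni3* read 48.1 and 54.1, and those of *Tnnt2*, *Ttn* and *Actc1* read 858, 1109.5 and 6443. The fibroblast markers measured ran from 156 (*Lum*) to 147519 (*Col1a2*), and the smooth muscle markers from 27.1 (*Myh11*) to 133436 (*Acta2*). Intensities of different probes are not strictly comparable. *Cnn1* was read on both arrays by 1 of its 2 probes, and the other was well above background with siRNA-*Ppp2r5d* only. The part of the mix of cells in the licensing values was not tested.

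Several members were read by probes at distant points of the same transcript. The 4 probes shown here lie more than 1000 bases upstream, in the genome, of the most downstream probe of their gene, and each has at least 1 of 3 forward reading frames free of stop codons. They are printed because they give a second reading of the same gene away from the end of the transcript. The letters are those of the array design, in the sense of the transcript, with positions in build mm9. No mm9 gene annotation was used here, so exons were not assigned. All 4 genes lie on the minus strand.

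*Mcm3* probe, chr1:20795363-20795879, an interval of 517 bases for 60 probe bases: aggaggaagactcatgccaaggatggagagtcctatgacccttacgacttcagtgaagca

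*Mcm6* probe, chr1:130237911-130237970: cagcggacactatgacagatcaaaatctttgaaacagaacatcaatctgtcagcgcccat

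*Mcm7* probe, chr5:138610447-138610506: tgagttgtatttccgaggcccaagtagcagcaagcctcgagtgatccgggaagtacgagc

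*Gmnn* probe, chr13:24845254-24845313: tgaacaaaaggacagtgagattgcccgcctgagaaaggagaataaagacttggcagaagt

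The *Mcm3* probe lies 2244 bases upstream of the last *Mcm3* probe, and the distances were 9733 bases for *Mcm6*, 4522 for *Mcm7* and 1402 for *Gmnn*. Over 158 pairs of probes of different members, the longest run of bases that a pair shared was 9 of 60, so no probe repeated the sequence of another member. Within *Mcm3*, 2 probes overlapped by 20 bases and are not separate readings of that stretch.

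All 10 genes were lower with siRNA-*Ppp2r5d*, where 45.9% of all 20350 genes measured had a log2 fold change under 0. At least 2-fold lower were 3 genes, *Mcm5*, *Cdc6* and *Mcm6*, against a background of 1.07% of all genes. None was at least 2-fold higher, where 0.885% of all genes were. At least 1.5-fold lower were 7 genes, all but *Mcm4*, *Mcm7* and *Cdt1*, where 4.65% of all genes were. The median over the 10 genes was a log2 fold change of -0.85, or 1.80-fold lower, and that over all genes was 0.026 with a standard deviation of 0.35 over genes. Since these values chose the genes, nothing is read from the counts set beside the background. In RNA of whole cultures, fewer cells that transcribe these genes and less of their RNA in each cell cannot be told apart.

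Among the helicase subunits, *Mcm5* stood lowest. Its probe (chr8:77651350-77651410, plus strand) read 2083 ± 208 with siRNA-NC and 474 ± 47.5 with siRNA-*Ppp2r5d*, where the error is that of the scanner software for 1 spot. After scaling each array to its 75th percentile this was a log2 fold change of -1.94 ± 0.20 (scanner error), or 3.84-fold lower, the 13th lowest of 20350 genes. *Mcm5* had 1 probe, so no second reading of the gene was at hand. Mcm5 forms, with Mcm2, the gate through which the ring opens around DNA.

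The *Mcm6* probe near the end of the transcript read 11069 with siRNA-NC and 4610 with siRNA-*Ppp2r5d*, a log2 fold change of -1.07. The internal *Mcm6* probe printed above was dim, at 67.7 and 23.9, and gave -1.31 ± 0.27. Both *Mcm6* probes were more than 2-fold lower, with a gene value of -1.19, and the difference between them was smaller than the scanner error of the dim one. *Mcm2* (chr6:88833619-88833678, minus strand), the other side of the gate, read 2284 and 1023, a log2 fold change of -0.97 or 1.95-fold lower. *Mcm2* thus lay just short of 2-fold.

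*Mcm3* was read by 4 probes. They read 4915, 4866, 3176 and 327 with siRNA-NC and 2559, 2429, 1702 and 171 with siRNA-*Ppp2r5d*. Their log2 fold changes were -0.75, -0.81, -0.71 and -0.74 in the same order, a mean of -0.75 with a standard deviation of 0.043 over probes. The *Mcm3* probes gave nearly the same fold change although the internal one was far dimmer than the others. *Mcm4*, whose product with those of *Mcm6* and *Mcm7* forms the part of the ring with helicase activity of its own, read 5660 and 3325 on its single probe, a log2 fold change of -0.57. *Mcm7* read 5398 and 3585 on one probe and 58.0 and 35.0 on the internal probe printed above, with log2 fold changes of -0.40 and -0.54. *Mcm7* was the least lowered subunit, at 1.38-fold lower.

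The 6 subunits, which are needed in equal numbers in the ring, therefore differed in fold change. Their median was -0.86 and their standard deviation over genes 0.54, while the pooled standard deviation between probes of 1 member gene was 0.15 (14 probes of 6 genes). *Mcm2*, *Mcm4* and *Mcm5* had 1 probe each and do not enter the pooled value, so for them probe and gene cannot be told apart. *Mcm5* was lower than *Mcm7* by a log2 difference of -1.47 ± 0.26 and lower than *Mcm2* by -0.98 ± 0.29 (scanner error). The lower *Mcm5* value rested on 1 probe, and how far cultures vary was not measured.

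**Figure D1:**
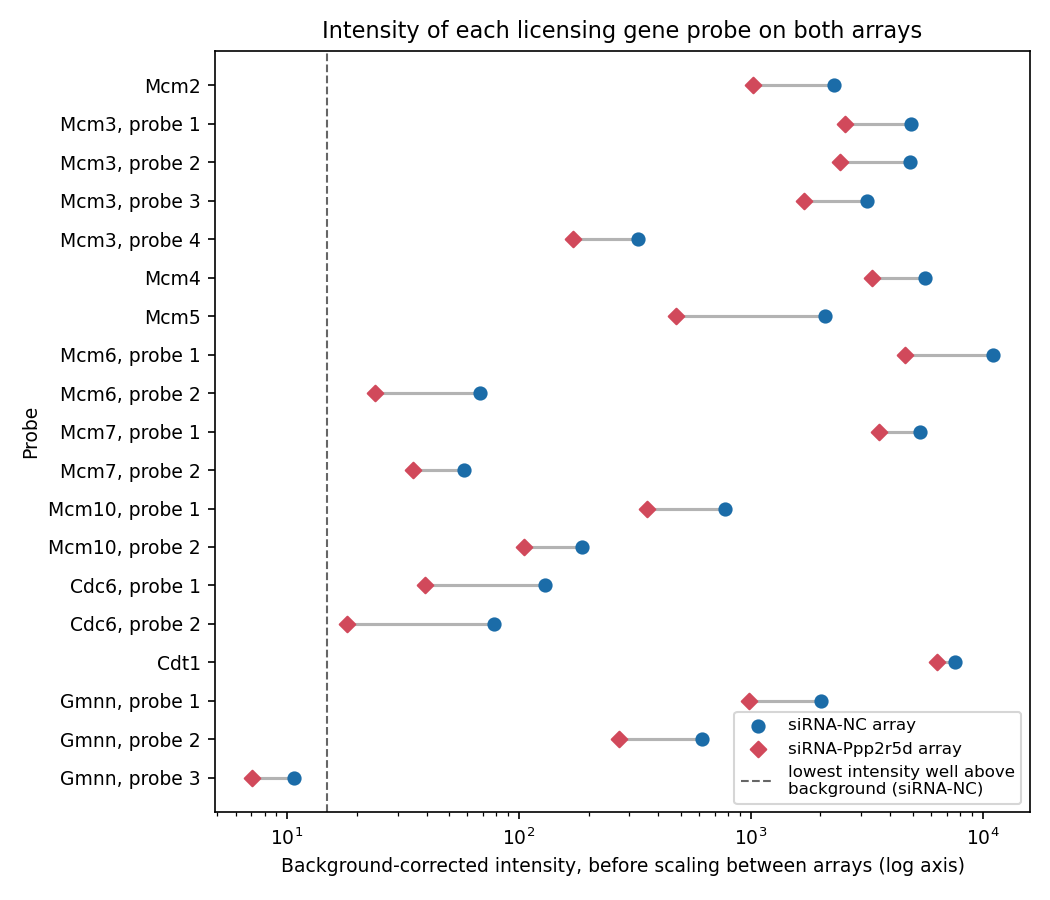
Background-corrected intensity of each of the 19 licensing gene probes (log axis, arbitrary units, before scaling between arrays) on the siRNA-NC array (circles) and the siRNA-Ppp2r5d array (diamonds), 1 array each. All 19 probes were dimmer on the siRNA-Ppp2r5d array, whose 75th percentile was itself lower (519 against 593); the dashed line marks 14.9, the lowest intensity well above background with siRNA-NC, and only Gmnn probe 3 lies left of it. Intensities of different probes are not comparable with each other.

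The loading factors differed from each other. *Cdc6*, the ATPase that joins the origin recognition complex to recruit the helicase, read 130 and 39.3 on one probe and 78.3 and 18.1 on the other. Its log2 fold changes were -1.53 and -1.92 ± 0.30, and the gene value of -1.73, 3.31-fold lower, was the 25th lowest of 20350 genes. Both *Cdc6* probes were dim. The lower one, at 18.1, lay close to 13.5, the lowest intensity well above background on that array, and with another background correction (normexp, offset 50) the gene value was -0.69.

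*Cdt1*, the partner of Cdc6 that carries the helicase to the origin, read 7620 ± 762 with siRNA-NC and 6340 ± 634 with siRNA-*Ppp2r5d*. The log2 fold change was -0.073 ± 0.20, or 1.05-fold lower, within the scanner error, and *Cdt1* ranked 7112th from the lowest. Over the 10 alternative ways of processing it lay between -0.25 and -0.045. No other member had a value this close to 0, and *Cdt1* differed from *Cdc6* by 1.65 ± 0.28 (scanner error). With normexp the 2 values lay closer together, at -0.14 for *Cdt1* and -0.69 for *Cdc6*. *Cdt1* had 1 probe, so no second reading of the gene was at hand.

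*Gmnn*, whose protein binds and blocks Cdt1, read 2005 and 984 on one probe and 616 and 271 on the internal probe printed above. The log2 fold changes were -0.83 and -0.99, with a gene value of -0.91 or 1.88-fold lower. Another *Gmnn* probe, which the array design places on the opposite strand of the genome, read 10.67 and 7.09, was not well above background on either array, and was not used. *Gmnn* RNA and *Cdt1* RNA, the inhibitor and its target, thus differed in log2 fold change by 0.84 ± 0.25 (*Cdt1* minus *Gmnn*, scanner error). The *Cdt1* side of this difference rested on 1 probe.

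*Mcm10*, despite its name not a part of the ring, joins the helicase when it is activated. Its probes read 778 and 358, and 187 and 105, for log2 fold changes of -0.93 and -0.64. The gene value was -0.78, or 1.72-fold lower.

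Over the 18 probes well above background on both arrays, all 18 were lower with siRNA-*Ppp2r5d* and 5 were at least 2-fold lower. Shares over all probes were not counted, and over all genes they were 45.9% and 1.07%. These probe counts restate the values that chose the genes, so nothing is read from them. In each of the 6 genes with several such probes, all probes were lower. The error of a probe's log2 fold change by the scanner software was 0.20 to 0.30. On the arrays themselves, 283 probes printed in 8 or more spots had a median standard deviation between spots of 0.036, and of 0.18 for the 8 of them under 100 intensity units on the siRNA-*Ppp2r5d* array, the range of the *Cdc6* probes and of the dim *Mcm6* and *Mcm7* probes. In the order from *Mcm5* to *Cdt1*, 7 of the 9 steps between neighbouring genes were no larger than 1 scanner error of the difference. The step from *Cdc6* to *Mcm6* alone exceeded 2 such errors, so the order inside the middle of the list, from *Mcm6* to *Mcm7*, is not resolved by single steps. Across the 18 probes Spearman's rho with the fold change was 0.34 for the siRNA-NC intensity and 0.16 for the GC content of the probe. The 18 probes share both arrays and several share a gene, so both values of rho are descriptions.

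**Figure D2:**
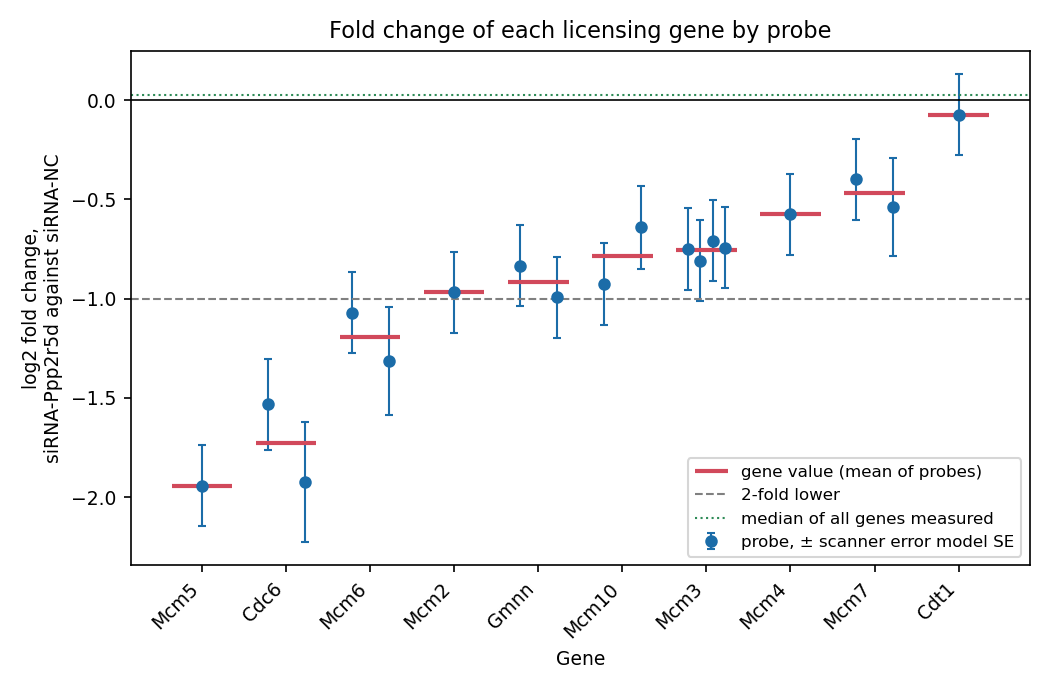
Log2 fold change (siRNA-Ppp2r5d against siRNA-NC) of the 18 measured probes of the 10 licensing genes, ordered by gene value. Points are probes with the scanner error (SE), red bars the mean of a gene's probes, the dashed line 2-fold lower and the dotted line the median of all genes (0.026). Mcm5 lies lowest at -1.94 and Cdt1 highest at -0.073, the only gene whose error bar reaches 0.

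Among all genes measured, most of the 10 lay along the lower edge of the distribution. Ranks from the lowest ran from 13 (*Mcm5*), 25 (*Cdc6*) and 112 (*Mcm6*) to 979 (*Mcm4*), 1458 (*Mcm7*) and 7112 (*Cdt1*) of 20350.

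**Figure D3:**
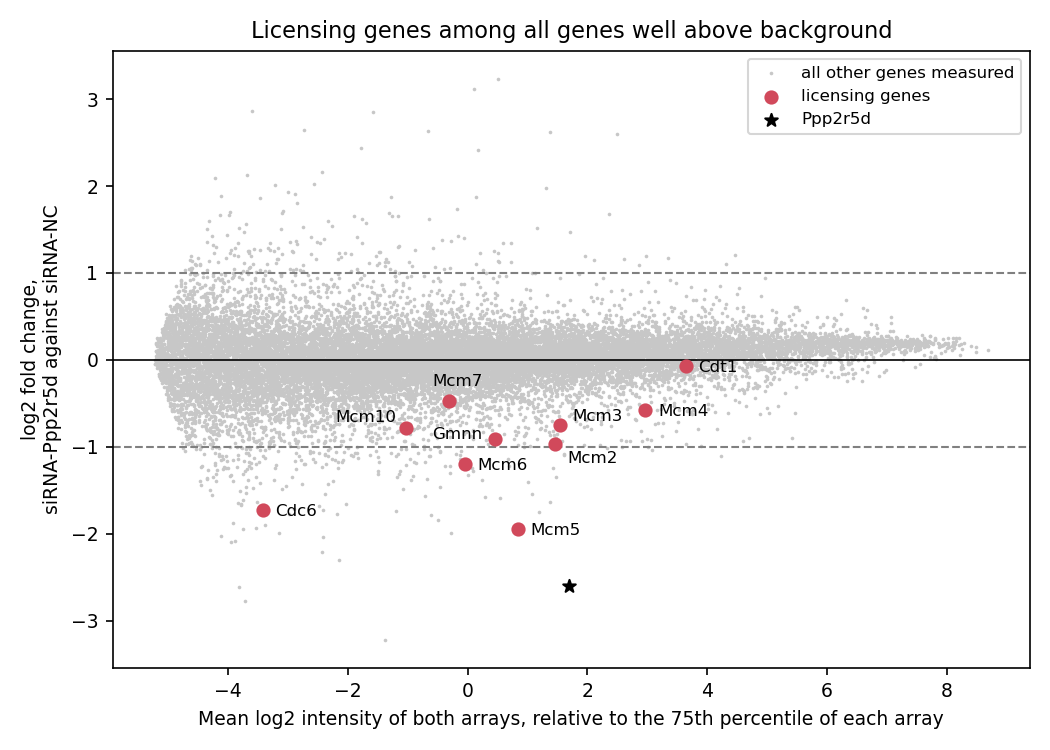
Log2 fold change against the mean log2 intensity of both arrays (relative to the 75th percentile of each) for 20350 genes, with the 10 licensing genes in red and Ppp2r5d as a star. Dashed lines mark 2-fold; Mcm5, Cdc6 and Mcm6 lie below the lower one, and Cdt1 lies within the grey band of all genes.

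The origin recognition complex, on which the helicase is loaded, was described by its 6 subunit genes. All 6 were measured, 4 were lower and 2 higher, and none was 1.5-fold lower or higher. Of all genes, 45.9% were lower, 4.65% were at least 1.5-fold lower, and 683 of 20350 were at least 1.5-fold higher. With 6 genes, nothing is read from the absence of 1.5-fold rises. Their median log2 fold change was -0.17. *Orc1*, whose product is the subunit removed after the origin is licensed in many mammalian cells, read 165 with siRNA-NC and 93.1 with siRNA-*Ppp2r5d* on its brightest probe and had the lowest gene value, -0.57 (-0.26 with normexp and -0.75, past 1.5-fold, with spike-in scaling). *Orc2* (0.11) and *Orc4* (0.019) were the 2 on the higher side, and both were on the lower side with spike-in scaling.

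Genes that help to load the helicase or that control the turnover of Cdt1, Cdc6 and geminin gave a median of -0.068 over 15 of 16 measured. Of these, 10 were lower, 5 were higher, 3 were at least 1.5-fold lower and none was 1.5-fold higher. The shares over all genes were 45.9% lower and 4.65% at least 1.5-fold lower, and 683 of 20350 genes were at least 1.5-fold higher. The lowest was *Fbxo5*, whose product Emi1 inhibits the anaphase-promoting complex, the ligase that marks geminin for destruction. *Fbxo5* read 759 and 269, a log2 fold change of -1.30. *Cdc20*, an activator of that complex, followed at -0.72, and *Dtl*, which directs Cdt1 to its ligase in S phase, at -0.67. The 2 *Dtl* probes used differed, at -0.94 and -0.39, and with normexp the gene value was -0.36, short of 1.5-fold. The cullin genes and *Ddb1* were not 1.5-fold lower, with *Cul4a* at -0.063, *Cul4b* at 0.095, *Ddb1* at 0.16 and *Cul1* at 0.44. With spike-in scaling *Cul4b* and *Ddb1* changed sign. *Gmnc*, a relative of geminin, was not well above background.

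At the next step, Cdc45 and the GINS complex join MCM2-7 to form the active helicase (CMG), with the Cdc7 kinase and other firing factors. All 14 genes of this list were measured, with a median of -0.41. Of them 12 were lower, 3 at least 1.5-fold lower and 1 at least 2-fold lower, where 45.9%, 4.65% and 1.07% of all genes were. None was 1.5-fold higher, where 683 of 20350 genes were. The counts of lower genes depended on the processing. At least 1.5-fold lower were 7 genes with spike-in scaling and 0 with normexp. The shares of all genes past 1.5-fold were not counted in those settings, so nothing is read from these counts. None was 2-fold lower with normexp, quantile normalization or the authors' values, where 0.216%, 0.973% and 0.978% of all genes were. *Cdc45* read 151 and 66.1 on its brightest probe and had a gene value of -1.05, which was -0.44 with normexp, and both of its probes were dim. *Donson* (-0.82) and *Gins2* (-0.66) were also more than 1.5-fold lower, though with normexp they were -0.57 and -0.50, and *Gins1* was -0.53. The 4 GINS genes did not move as a unit, since *Gins4* was -0.021 and *Gins3* 0.11, 2 values whose sign depended on the scaling. The kinase *Cdc7* was -0.38, while *Dbf4*, its activating subunit, was 0.31. *Ticrr*, at -0.57, had 2 probes with a standard deviation of 0.73 between them, so its value is not firm.

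MCM family proteins outside the ring gave a median of -0.070 over 5 genes, 1 of them at least 1.5-fold lower, where 4.65% of all genes were. *Mcm8*, which acts in recombination, was the one past 1.5-fold, reading 385 and 214 for a log2 fold change of -0.66, which was -0.55 and short of 1.5-fold with normexp. Its partner *Mcm9* was -0.19, *Mcmbp*, which binds MCM subunits, was -0.070, *Mcm3ap* was 0.050 (-0.13 with spike-in scaling) and *Mcmdc2* was 0.40. The *Mcmdc2* value came from 1 of its 4 probes, which read 31528 and 36396, while the other 3 were not well above background on either array, so it is not firm.

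Markers of S phase and of G2 and M phase were lower on the same array. Of 11 S phase markers measured 9 were lower and 4 at least 2-fold lower, where 45.9% and 1.07% of all genes were. Their median was -0.49, and *Tk1*, a thymidine kinase, was the lowest at -1.84. *Pcna*, the sliding clamp of the fork, named after its value was seen, read 16959 and 15687, a log2 fold change of 0.080 that was -0.096 with spike-in scaling. All 14 G2 and M phase markers were lower, 11 of them at least 1.5-fold, where 45.9% and 4.65% of all genes were. Their median was -0.71, with a narrow range from *Top2a* (-1.09) to *Ccnb1* (-0.47). *Ccne2* was not well above background. The part of a smaller share of cycling cells in the licensing values was not tested.

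**Figure D4:**
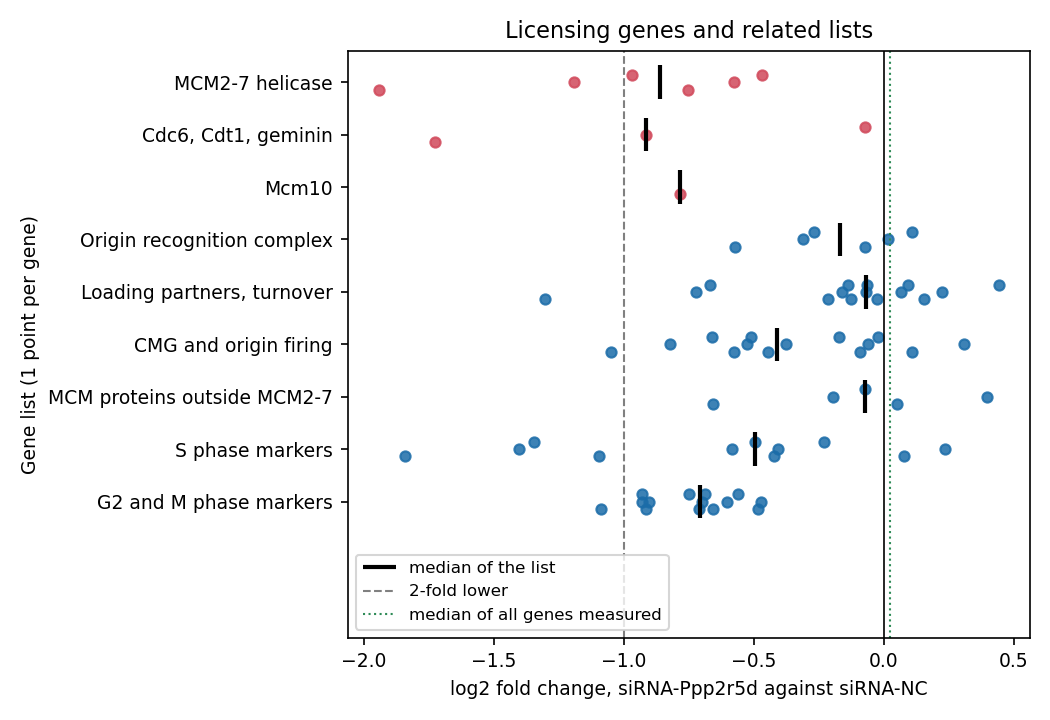
Log2 fold change (siRNA-Ppp2r5d against siRNA-NC) of single genes in the licensing groups (red) and in related lists (blue), with the list median as a black bar, 2-fold lower as a dashed line and the median of all genes as a dotted line. MCM2-7 (median -0.86) and the G2 and M phase markers (median -0.71) lie wholly below 0, while the origin recognition complex (median -0.17) spreads around it.

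Stretches of the promoters were compared for letters that the genes share, since all 10 genes were lower. RefSeq windows of assembly GRCm38.p6, from 250 bases before to 50 after the start of transcription, were at hand for 8 of the 10 genes, and *Mcm4* and *Gmnn* had none. The letters searched on both strands were TTTCCCGC, TTTCGCGC, TTTGCCGC and TTTGGCGC, forms of the E2F site, where matches on opposite strands may overlap, and CCAAT, the letters bound by NF-Y. E2F letters were found in 6 of the 8 genes (75%), *Mcm3*, *Mcm5*, *Mcm6*, *Mcm7*, *Cdc6* and *Cdt1*. They were found in 2.6% of all 27025 genes with a window and in 4.20% of those measured on both arrays. In the origin recognition complex and CMG lists, 4 of 14 genes with a window (28.6%) had them, so the letters are not particular to the members. CCAAT was found in 7 of the 9 windows of these 8 genes, against 37.4% of all 32851 windows and 44.4% of the 18 windows of those lists. The stretches that hold the letters are shown for *Mcm5* and *Mcm6*, the ring subunits with the lowest fold changes, with the E2F letters in capitals.

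*Mcm5*, chr8:75109336-75109395, plus strand, 173 to 114 bases before the start: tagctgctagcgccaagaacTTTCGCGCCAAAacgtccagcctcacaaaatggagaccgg

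*Mcm6*, chr1:128359725-128359835, minus strand, 130 to 20 bases before the start: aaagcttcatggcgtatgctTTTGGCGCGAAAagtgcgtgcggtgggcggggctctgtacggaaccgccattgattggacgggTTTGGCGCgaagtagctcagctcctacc

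The capital run of *Mcm5* holds 2 overlapping matches on opposite strands, and *Mcm6* has such a pair and 1 further match, for 3 in all. All 3 members that were at least 2-fold lower, *Mcm5*, *Cdc6* and *Mcm6*, had E2F letters. Among the others, *Cdt1* (-0.073), *Mcm3* (-0.75) and *Mcm7* (-0.47) had them, and *Mcm2* (-0.97) and *Mcm10* (-0.78) did not within this window. Over 465 other measured genes with E2F letters, the median log2 fold change was -0.026 and 6.88% were at least 1.5-fold lower, where 10730 measured genes with a window and no such letters had a median of 0.021 and 4.57%. Both medians lay near 0. A match describes these letters and not the binding of a factor.

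The nearest protein-coding genes beside the members on the chromosome were chosen after the data were seen. Of 20 neighbours 15 were measured, 9 were lower and none was 1.5-fold lower, where 45.9% and 4.65% of all genes were. With 15 genes these counts lie near those shares, so nothing is read from them. The median was -0.042, with a range from -0.47 (*Podxl2*, beside *Mcm2*) to 0.37 (*Aprt*, beside *Cdt1*). *Hmox1*, next to *Mcm5*, was 0.12, and *Ap4m1* and *Cops6*, on either side of *Mcm7*, were 0.27 and 0.086.

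The scaling and the background correction moved the size of the member values and not their direction. With 8 spike-in probes as the reference, all genes shifted by -0.18. Then 5 members were at least 2-fold lower, *Mcm2* and *Gmnn* in addition, where 2.02% of all genes were. With normexp only *Mcm5* remained at least 2-fold lower, where 0.216% of all genes were. The bright *Mcm6* probe was still -1.07 with normexp, and the dim one moved to -0.42, for a gene value of -0.75. *Mcm5* lay between -2.12 and -1.83 in all 10 alternatives, the *Cdc6* value between -1.90 and -0.69, and *Mcm6* between -1.37 and -0.75.

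**Figure D5:**
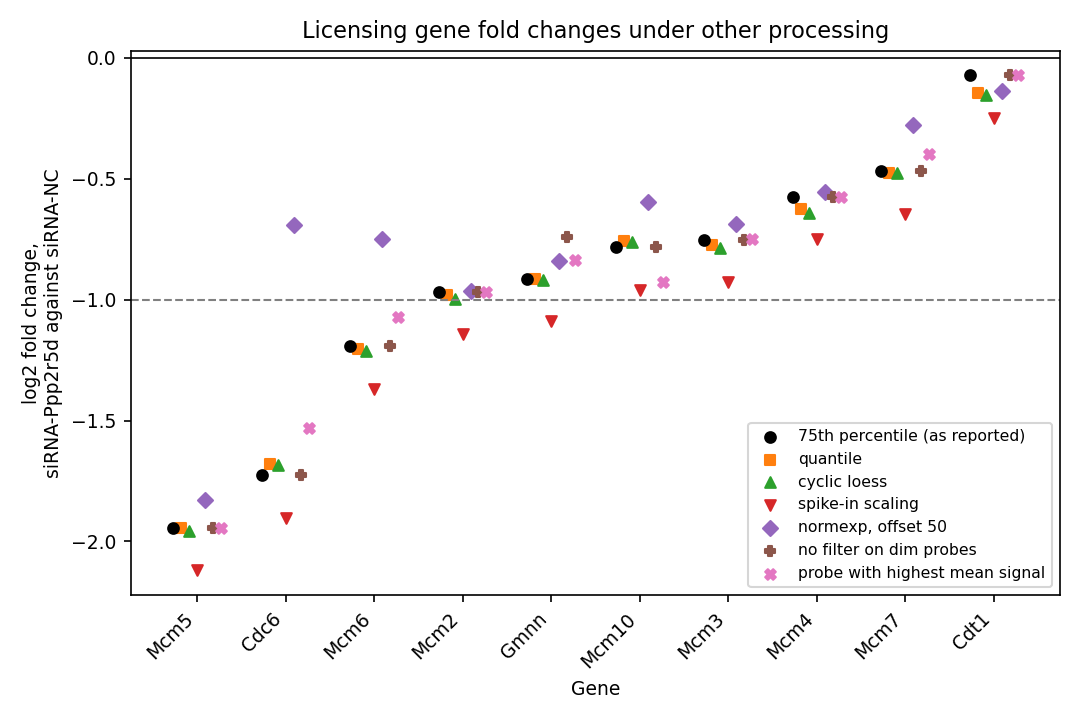
Log2 fold change (siRNA-Ppp2r5d against siRNA-NC) of each licensing gene under 7 ways of processing the same 2 arrays, 1 symbol each, with 2-fold lower as a dashed line. All 10 genes stay below 0; the widest spread is that of Cdc6 (-1.90 with spike-in scaling to -0.69 with normexp), whose probes were dim.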

How the data were processed

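Total RNA of 2 cultures was hybridised as Cy3-labelled cRNA to Agilent SurePrint G3 Mouse v2 arrays. The authors deposited the intensity of each spot from Agilent Feature Extraction 10.7.1.1, with the background already taken off and no normalization across the arrays. Log2 values per probe, deposited as well, matched a quantile normalization of the intensities (median absolute difference 5.63e-05) and served as an alternative.

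The members and gene lists were chosen with earlier results of these data known. Control spots and spots marked as outliers (126 and 95 of 59305 non-control spots) were left out, spots of 1 probe were averaged, and the 75th percentile of non-control probes (593 and 519) was subtracted on the log2 scale. A gene's value was the mean log2 difference of its probes well above background on both arrays, and its error was that of the scanner software. No test was possible with 1 array per condition, so counts past 2-fold and past 1.5-fold were given beside those of all genes. The study's methods joined a 2-fold threshold to a t-test, so the 2-fold counts here are not the study's calls. The 10 alternatives used cyclic loess, quantile normalization, spike-in scaling or the median of detected probes, normexp with an offset of 50, the authors' values, a looser filter on dim probes or none, all outlier spots, or the brightest probe of a gene. The neighbours and the other genes with E2F letters were added after the data were seen. All 10 members were named, with genes of the related lists, and of each marker list those with the lowest and highest values and those at background, apart from 1 gene that is not reported here. Protein sequences were not used here. The steps were tested on simulated data and run in R 4.3.3 with limma 3.58.1, and in Python 3.11.15 with NumPy 2.4.6, pandas 2.3.3, SciPy 1.17.1 and matplotlib 3.10.9. The number of arrays limits the precision.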

Additional observations from a re-analysis of the deposited data

How the results depend on the processing

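All 10 licensing genes were lower in each of the 10 alternatives, and 7 to 9 were at least 1.5-fold lower. The matching shares of all genes were not counted under the alternatives, so nothing is read from these counts. The median log2 fold change of the 10 genes was -0.85 as reported, -1.02 with spike-in scaling, -0.69 with normexp and -0.77 without a filter on dim probes. The 3 genes at least 2-fold lower became 5 with spike-in scaling and 1 with normexp, while 7 passed 1.5-fold and 0 passed 4-fold. The median of the loading and turnover list changed sign, from -0.068 to 0.016 with normexp, and the cause was not tested. Against 0.036, the median standard deviation between repeated spots, 67 values of single members moved by less and 33 by more, as did 43 and 16 of the other list medians. Over all genes, 218 were at least 2-fold lower and 180 higher (54.8% lower), against 411 and 109 with spike-in scaling (79.0%), 44 and 56 with normexp (44.0%), 619 and 404 with probes detected on 1 array or both, and 1119 and 957 without a filter. No paired analysis was possible because each condition had a single array, and no array could be left out. Signal over background limits *Cdc6* and the dim *Mcm6* and *Mcm7* probes, and the spread between cultures is unknown.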
